A study of Mus musculus with 26 samples.

Results

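The 10 genes described here encode enzymes that make serine, mitochondrial one-carbon units, asparagine and proline. They are *Phgdh*, *Psat1*, *Psph*, *Shmt2*, *Mthfd2*, *Mthfd1l*, *Aldh1l2*, *Asns*, *Pycr1* and *Aldh18a1*, and were chosen by function from the 55487 genes of the count table. Their transcripts were measured by 3′ mRNA sequencing in pieces of the proximal small intestine (SI) of 26 mice, 1 library per mouse. Knockout mice (tamIEC-KO) carried floxed (fl/fl) alleles of the targeted gene and the *Villin-creERT2* transgene, which expresses a tamoxifen-activated Cre recombinase in intestinal epithelial cells (IECs). Control mice carried the same fl/fl alleles without the Cre transgene. All mice had the C57BL/6N background, were 8 to 12 weeks old and received 5 daily injections of tamoxifen. Tissue was taken 3 days (7 mice per genotype) or 7 days (6 mice per genotype) after the last injection. The pieces were not dissociated, so lamina propria and muscle were sequenced along with the epithelium, in which alone Cre acts. Fewer cells of a type and less RNA per cell cannot be told apart in such tissue.

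Mitochondrial dysfunction is known to raise the transcription factor ATF4, whose known targets include many of the enzymes described here. Serine is made from a glycolytic intermediate in 3 steps, by PHGDH, PSAT1 and PSPH in that order. In mitochondria, SHMT2 splits serine into glycine and a one-carbon unit carried by folate, MTHFD2 oxidizes that unit, and MTHFD1L releases it as formate for the cytosol, where purines and thymidylate are made. ALDH1L2 instead oxidizes the unit to carbon dioxide and yields NADPH. ASNS makes asparagine from aspartate. ALDH18A1 and PYCR1 catalyse the first and the last step from glutamate to proline in mitochondria.

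ATF4 binds, with C/EBP partners, a composite element known as the C/EBP-ATF response element. The letters TGATGNAA were searched on both strands in RefSeq promoter windows of GRCm38.p6, from 250 bases before to 50 bases after each start, and were found in 3.97% of 32851 windows. The stricter letters TGATGCAA, all of whose matches are also matches of the first motif, were found in 0.895%. Counted per gene, the shares were 4.51% and 1.03% of 27025 genes. For 9 of the 10 genes a window was available, 10 windows in all, and 2 genes held a match. Parts of these 2 windows, of *Asns* and *Pycr1*, are shown with the matched letters in capitals. The stretch of *Psat1*, which had the largest rise at 3 days, is shown as a promoter without these letters. All 3 lie on the minus strand and are written 5′ to 3′ on that strand.
*Asns* (chr6:7693214-7693243, 34 to 5 bases before the RefSeq start): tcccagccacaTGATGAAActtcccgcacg
*Pycr1* (chr11:120643770-120643889, 141 to 22 bases before the RefSeq start): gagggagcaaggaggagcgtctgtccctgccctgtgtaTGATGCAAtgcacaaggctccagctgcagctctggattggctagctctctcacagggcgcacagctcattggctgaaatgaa
*Psat1* (chr19:15925060-15925179, 120 to 1 bases before the RefSeq start): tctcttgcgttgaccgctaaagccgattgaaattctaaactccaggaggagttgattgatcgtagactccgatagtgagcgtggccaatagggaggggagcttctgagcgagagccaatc
The stretch of *Psat1* lies outside the annotated exons but inside a longer annotated transcript of the gene. The match of *Asns* lies 23 to 16 bases before the start, within an exon of the annotation used for the coordinates of the genes, and that of *Pycr1* 103 to 96 bases before it. A match of letters is a description of the sequence, and a window without them says nothing of the factor.

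The libraries held between 3720168 and 6338016 counts (median 5235752). Values are given as CPM, the count scaled to the library total, and genotypes were compared separately at each day by the quasi-likelihood test of edgeR and Benjamini-Hochberg adjustment over all genes tested (threshold 0.05). All 7 epithelial markers (*Epcam*, *Cdh1*, *Vil1*, *Krt8*, *Krt19*, *Cdx1*, *Cdx2*) had counts in most libraries of each group. Some libraries also held transcripts of neighbouring organs. The summed CPM of 7 stomach markers was 633 in knockout replicate 1 and 5445 and 176 in control replicates 5 and 7 at 3 days, 5330 in control replicate 2 at 7 days, and at most 14.9 in all others. Between 2 and 4 of these 7 markers had counts in most libraries of a group. The summed CPM of 8 pancreatic acinar markers exceeded 1000 in 7 libraries: knockout replicate 2 and control replicates 1, 2 and 3 at 3 days, and knockout replicate 4 and control replicates 1 and 4 at 7 days, and it reached 22940. Where a result rests on these libraries it is given with and without them.

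Of the 10 genes, 8 were higher in knockout mice 3 days after tamoxifen and all 10 at 7 days, and none was lower. Over all genes tested, 1.11% were higher and 0.323% lower at 3 days, and 19.7% were higher and 18.8% lower at 7 days. The median log2 fold change of the 10 genes was 2.06 at 3 days and 2.41 at 7 days, whereas that of all genes was -0.03 and -0.02. In 7 of the 10 genes at 3 days, and in 9 at 7 days, every knockout mouse had a higher CPM than every control mouse. This was the case for 0.356% of all genes at 3 days and 11% at 7 days. The exceptions were *Phgdh*, *Pycr1* and *Aldh18a1* at 3 days and *Pycr1* at 7 days.

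**Figure D1:**
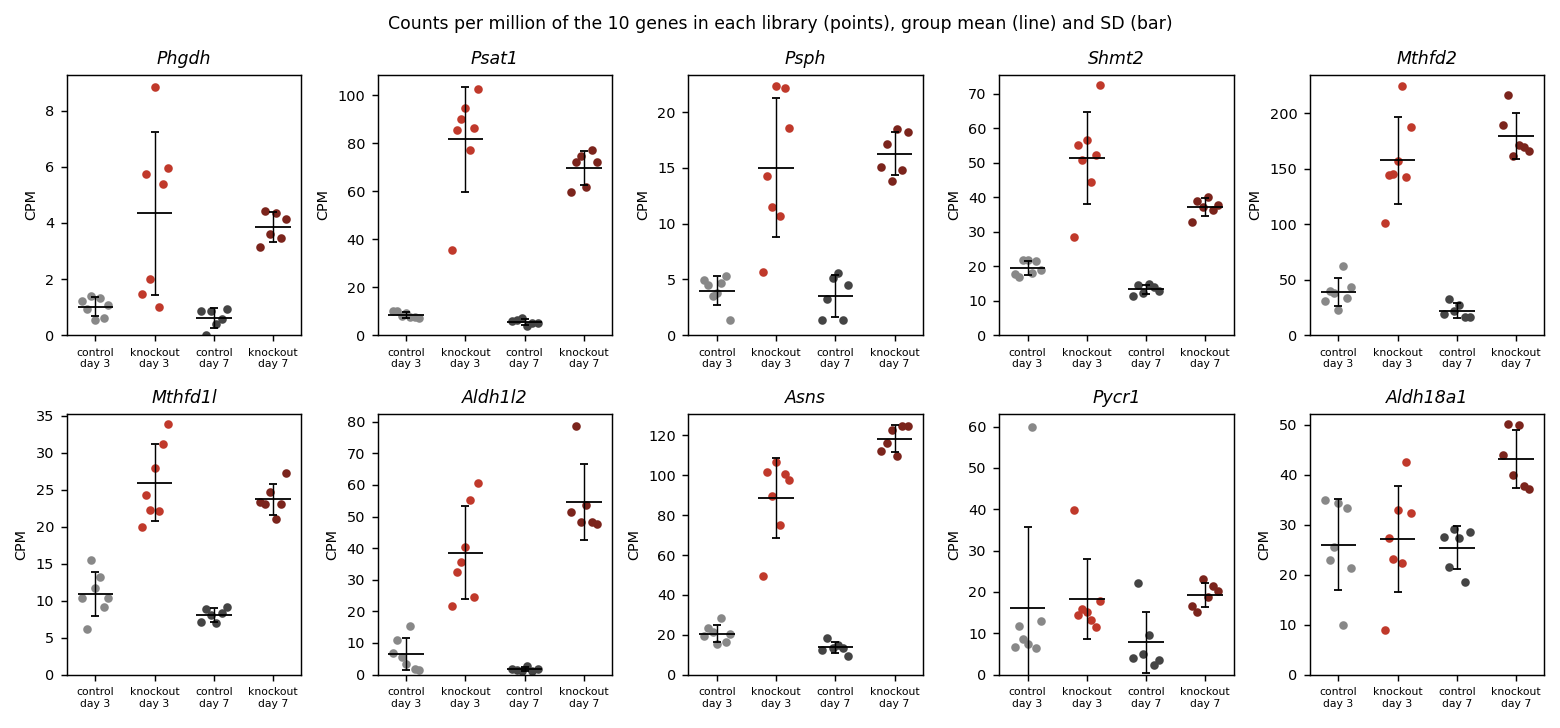
CPM (linear axis, from 0) of the 10 genes in each of the 26 libraries, by genotype and day; points are mice, the line is the group mean and the bar the SD, drawn only above 0. Knockout and control mice were apart in 7 genes at 3 days and in 9 at 7 days, and *Pycr1* had single high libraries of 59.9 and 22.1 CPM among control mice and of 39.7 CPM among knockout mice at 3 days.

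*Psat1* (ENSMUSG00000024640, GRCm38 chromosome 19, 15904678 to 15947337, minus strand) encodes the aminotransferase of the second step of serine synthesis and rose most at 3 days. It lay between 35.5 and 103 CPM (median 86.6) in knockout and between 7.17 and 10.3 CPM (median 8.17) in control mice. Knockout replicate 1 had the lowest value, the 6 other knockout mice had at least 77.1 CPM, and none overlapped the control mice. This was a log2 fold change of 3.36 ± 0.21 (SE, adjusted p = 1.8e-07), a 10.3-fold rise. At 7 days the knockout mice lay between 59.9 and 77.2 CPM (median 72.3) and the control mice between 3.85 and 7.01 CPM (median 5.48). In edgeR the log2 fold change was 3.67 ± 0.13 (adjusted p = 5.3e-13). The effect thus differed between the days by 0.34 ± 0.25 on the log2 scale, which did not pass the threshold in the interaction test (adjusted p = 0.42).

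*Phgdh* (ENSMUSG00000053398, chromosome 3, 98313170 to 98339990, minus strand) encodes the dehydrogenase that commits the glycolytic intermediate to serine, and had the fewest reads of the 10 genes. At 3 days the knockout mice lay between 1.01 and 8.85 CPM (median 5.37), from 4 to 45 counts, and the control mice between 0.532 and 1.39 CPM (median 1.06), from 3 to 7 counts. Knockout replicates 2, 4, 6 and 7 were high, at 5.73, 8.85, 5.37 and 5.95 CPM. Replicates 1, 3 and 5 had 1.47, 1.996 and 1.01 CPM, near or within the control range. The difference on the log2 scale was 2.22 ± 0.47 (adjusted p = 0.022). This call was lost on leaving out any 1 of knockout replicates 4 and 7 and control replicates 2, 4, 6 and 7 (adjusted p between 0.051 and 0.058), and without the libraries with stomach or acinar transcripts (log2 fold change 3.11, adjusted p = 0.21), which left only 5 knockout and 2 control mice. After 7 days the knockout mice lay between 3.15 and 4.44 CPM (median 3.87) and the control mice between 0 and 0.947 CPM (median 0.712), with no overlap. Its log2 fold change was 2.60 ± 0.36 (adjusted p = 1.0e-05).

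*Psph* (ENSMUSG00000029446, chromosome 5, 129765558 to 129787449, minus strand) encodes the phosphatase of the last step. At 3 days it lay between 5.68 and 22.3 CPM (median 14.2) in knockout and between 1.33 and 5.30 CPM (median 4.46) in control mice. The lowest knockout mouse was again replicate 1, just above the highest control. The log2 fold change was 1.99 ± 0.31 (adjusted p = 0.0021). At 7 days the ranges were 13.8 to 18.5 CPM (median 16.1) and 1.35 to 5.58 CPM (median 3.88), and the log2 fold change was 2.22 ± 0.25 (adjusted p = 1.2e-06). Exons of *Psph* overlap *Cct6a* on the opposite strand, and its value was a whole number in 69.2% of libraries, so some of its reads were shared between genes.

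The spread among knockout mice at 3 days was not the same for all enzymes. Replicates 1, 3 and 5, which had the least *Phgdh*, were also the lowest 3 of the 7 knockout mice for *Psph* (5.68, 11.5 and 10.7 CPM), *Shmt2* (28.5, 50.9 and 44.4 CPM), *Mthfd1l* (19.97, 22.18 and 22.16 CPM), *Asns* (49.4, 89.4 and 75.0 CPM) and *Aldh18a1* (8.83, 23.1 and 22.4 CPM). Replicate 5 in turn had the most *Mthfd2* (224 CPM) and the second most *Aldh1l2* (55.1 CPM), whereas replicate 3 had 90.3 CPM of *Psat1*, above the median. Replicate 1 was the lowest knockout mouse in 8 of the 10 genes. That library had the lowest sums of the epithelial (1075 CPM) and enterocyte markers (400 CPM) and the highest sum of smooth muscle markers (4010 CPM) among the 14 libraries of that day. In the 6 other knockout mice these sums lay between 1508 and 2424 CPM, 2822 and 9006 CPM and 957 and 2924 CPM, respectively. The part of tissue composition in the spread was not tested.

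*Shmt2* (ENSMUSG00000025403, chromosome 10, 127517123 to 127522444, minus strand), the mitochondrial serine hydroxymethyltransferase, rose by nearly the same factor at both days. At 3 days it lay between 28.5 and 72.5 CPM (median 52.1) in knockout and between 17.0 and 21.8 CPM (median 18.8) in control mice. This was a log2 fold change of 1.51 ± 0.17 (adjusted p = 8.0e-05). At 7 days the ranges were 32.9 to 40.1 CPM (median 37.5) and 11.3 to 14.8 CPM (median 13.5), and the log2 fold change was 1.51 ± 0.09 (adjusted p = 5.2e-10). The difference between the days was 0.03 ± 0.19 on the log2 scale. Exons of *Shmt2* overlap *Ndufa4l2* on the opposite strand, and 53.8% of its values were whole.

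*Mthfd2* (ENSMUSG00000005667, chromosome 6, 83305691 to 83325908, minus strand), the mitochondrial methylenetetrahydrofolate dehydrogenase, lay between 101 and 224 CPM (median 146) in knockout and between 22.4 and 62.4 CPM (median 38.2) in control mice at 3 days. The highest control was replicate 5, the library with the most stomach transcripts. In edgeR the log2 fold change was 2.13 ± 0.22 (adjusted p = 5.0e-05). After 7 days the knockout mice were at 162 to 217 CPM (median 170.2) and the control mice at 16.4 to 32.6 CPM (median 20.5), again with the stomach-bearing replicate 2 as the highest control. The difference on the log2 scale was 3.04 ± 0.15 (adjusted p = 2.2e-11).

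*Mthfd1l* (ENSMUSG00000040675, chromosome 10, 3973118 to 4167081, plus strand), the mitochondrial formyltetrahydrofolate synthetase, had the smallest called rise at 3 days. The knockout mice lay between 19.97 and 33.85 CPM (median 24.2) and the control mice between 6.14 and 15.5 CPM (median 10.4). Its log2 fold change was 1.35 ± 0.19 (adjusted p = 0.00095). At 7 days the ranges were 21.0 to 27.2 CPM (median 23.2) and 6.93 to 9.15 CPM (median 8.16), and the log2 fold change was 1.58 ± 0.12 (adjusted p = 4.7e-09).

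*Aldh1l2* (ENSMUSG00000020256, chromosome 10, 83487450 to 83534140, minus strand), the mitochondrial formyltetrahydrofolate dehydrogenase, had the largest rise of the 10 genes at 7 days. At 3 days it lay between 21.6 and 60.5 CPM (median 35.5) in knockout and between 1.59 and 15.5 CPM (median 5.58) in control mice, and the log2 fold change was 2.67 ± 0.42 (adjusted p = 0.0021). After 7 days the knockout mice lay between 47.7 and 78.6 CPM (median 49.8) and the control mice between 0.963 and 2.79 CPM (median 1.53). The log2 fold change was 5.13 ± 0.19 (adjusted p = 6.2e-13), a 34.9-fold rise. Exons of *Aldh1l2* overlap *D10Wsu102e* on the opposite strand, and 57.7% of its values were whole.

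The control mice of day 3 were uneven in *Aldh1l2*. Replicates 1, 2 and 3, the 3 controls with over 1000 CPM of acinar markers, had 6.79, 10.97 and 5.58 CPM of *Aldh1l2*, and replicate 5, with stomach transcripts, had 15.5 CPM. Replicates 4 and 6, which were under both limits, had 3.28 and 1.77 CPM, and replicate 7, with 176 CPM of stomach markers, had 1.59 CPM. At 7 days control replicates 1, 2 and 4, which held acinar or stomach transcripts, had 1.78, 1.41 and 2.79 CPM, near the other 3 controls (0.963 to 1.66 CPM). Knockout replicate 2 of day 3, with 22940 CPM of acinar markers, had 32.5 CPM of *Aldh1l2* (group median 35.5). Knockout replicate 4 of day 7, with 11754 CPM of these markers, had 53.6 CPM (group median 49.8). Without all libraries with stomach or acinar transcripts the log2 fold change of *Aldh1l2* at 3 days was 4.24 (adjusted p = 0.00039) in place of 2.67. The part of these transcripts in the control values was not tested.

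**Figure D2:**
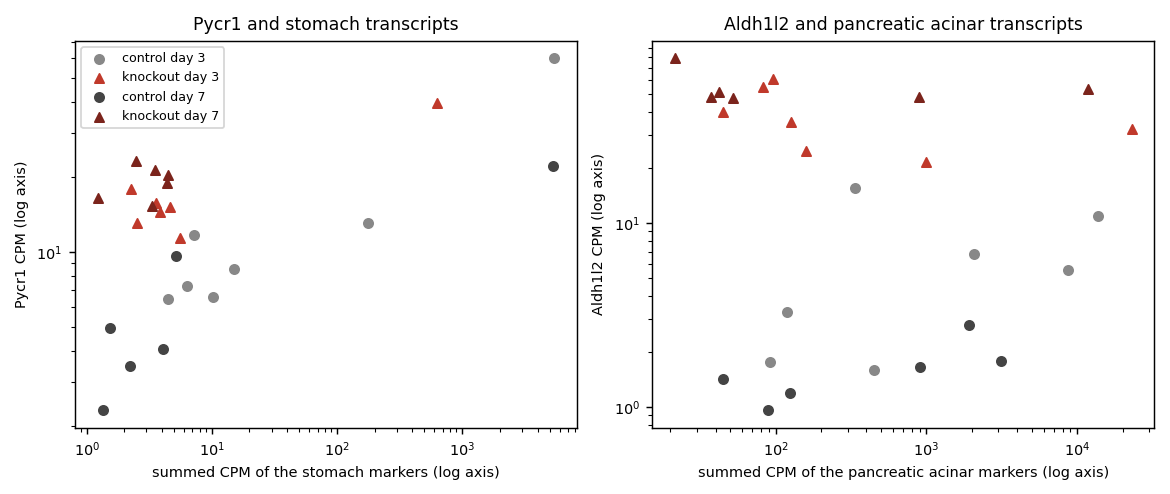
CPM of *Pycr1* against the summed CPM of 7 stomach markers (left) and of *Aldh1l2* against that of 8 pancreatic acinar markers (right) in each of the 26 libraries, all axes on a log scale; circles are control and triangles knockout mice. The 3 libraries with the most stomach transcripts (633, 5445 and 5330 CPM) had 39.7, 59.9 and 22.1 CPM of *Pycr1*, each the highest value of its group.

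*Asns* (ENSMUSG00000029752, chromosome 6, 7675169 to 7693254, minus strand) encodes the synthetase that makes asparagine. At 3 days it lay between 49.4 and 107 CPM (median 97.4) in knockout and between 15.3 and 28.2 CPM (median 20.2) in control mice. Knockout replicate 1 was again the lowest and control replicate 5 the highest, without overlap. This was a log2 fold change of 2.23 ± 0.20 (adjusted p = 1.2e-05). At 7 days the knockout mice lay close together at 110 to 125 CPM (median 120) and the control mice at 9.31 to 18.2 CPM (median 13.2), and the log2 fold change was 3.16 ± 0.12 (adjusted p = 1.1e-12).

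The genes of proline synthesis were the 2 that did not pass the threshold at 3 days. *Pycr1* (ENSMUSG00000025140, chromosome 11, 120635712 to 120643769, minus strand), the mitochondrial pyrroline carboxylate reductase, lay between 11.4 and 39.7 CPM (median 15.1) in knockout and between 6.45 and 59.9 CPM (median 8.56) in control mice at 3 days, with full overlap. The extremes were knockout replicate 1 and control replicate 5, both with stomach transcripts. The 6 other knockout mice had at most 17.8 CPM, and the next highest control was replicate 7 at 13.0 CPM, the third library of that day with stomach transcripts. In edgeR the log2 fold change was 0.25 ± 0.48 (adjusted p = 0.88). Without control replicate 5 it was 1.13 (adjusted p = 0.047), without knockout replicate 1 it was -0.03 (adjusted p = 0.98), and without the 3 libraries of that day with stomach transcripts it was 0.98 (adjusted p = 0.0096). Without all libraries with stomach or acinar transcripts it was 1.21 (adjusted p = 0.063). The call at 3 days thus changed with single libraries.

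At 7 days *Pycr1* lay between 15.2 and 23.1 CPM (median 19.6) in knockout and between 2.31 and 22.1 CPM (median 4.51) in control mice, where replicate 2, with stomach transcripts, was the only control over 9.62 CPM. The difference on the log2 scale was 1.39 ± 0.36 (adjusted p = 0.0045). Without control replicate 2 it was 1.99 (adjusted p = 2.9e-06). With the score of the epithelial markers as a covariate the call was lost (1.18, adjusted p = 0.20). The summed CPM of these markers did not overlap between the genotypes at that day (2011 to 2339 in knockout, 2777 to 3339 in control mice). That fit thus can hardly separate the score from the genotype.

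*Aldh18a1* (ENSMUSG00000025007, chromosome 19, 40550257 to 40588463, minus strand), which encodes the enzyme of the first step from glutamate, lay between 8.83 and 42.5 CPM (median 27.4) in knockout and between 9.95 and 34.9 CPM (median 25.5) in control mice at 3 days. The lowest libraries of both genotypes were those with the high *Pycr1* values, knockout replicate 1 and control replicate 5. Its log2 fold change was 0.18 ± 0.29 (adjusted p = 0.85). After 7 days the knockout mice lay between 37.1 and 50.1 CPM (median 42.0) and the control mice between 18.5 and 29.1 CPM (median 27.4), without overlap. The log2 fold change was 0.79 ± 0.13 (adjusted p = 6.0e-05), the smallest rise of the 10 genes at that day.

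**Figure D3:**
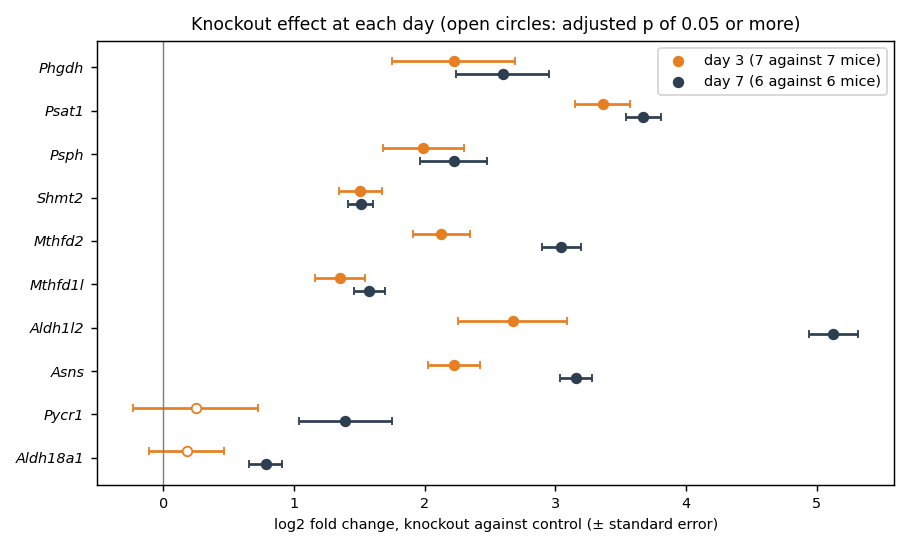
Log2 fold change of each gene in knockout against control mice with its SE (bars) at 3 days (orange) and 7 days (dark); open circles are values with an adjusted p of 0.05 or more. At 3 days *Pycr1* (0.25) and *Aldh18a1* (0.18) lay near 0 while the other 8 lay between 1.35 (*Mthfd1l*) and 3.36 (*Psat1*); at 7 days the range was 0.79 (*Aldh18a1*) to 5.13 (*Aldh1l2*).

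Whether the effect of the knockout grew between the days was tested with the interaction of genotype and day over all 26 libraries. The effect was larger at 7 days for *Aldh1l2* (by 2.48 ± 0.53 on the log2 scale, adjusted p = 0.0014), *Asns* (0.96 ± 0.24, adjusted p = 0.0055) and *Mthfd2* (0.94 ± 0.28, adjusted p = 0.018), 3 of the 10 genes, while 7.07% of all genes passed in this direction. Without the libraries with stomach or acinar transcripts these differences were 1.16 (adjusted p = 0.22), 0.60 (0.16) and 0.53 (0.30), and all 3 calls were lost, whereas *Pycr1* passed (1.17, adjusted p = 0.041). The differences of *Phgdh* (0.41 ± 0.64), *Psat1* (0.34 ± 0.25), *Psph* (0.26 ± 0.44), *Mthfd1l* (0.25 ± 0.23), *Pycr1* (1.16 ± 0.68) and *Aldh18a1* (0.63 ± 0.34) did not pass, with adjusted p-values between 0.23 and 0.76.

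The same libraries were then compared between the days within a genotype. In these comparisons a difference in day and one in sequencing batch cannot be told apart, as no batch is named. Sums of tissue markers also differed between the days. In control mice the median summed CPM of enterocyte markers went from 3328 at 3 days to 10040 at 7 days. That of smooth muscle markers went from 1913 to 807.5, and that of lymphocyte and plasma cell markers from 23340 to 10610. In knockout mice these medians went from 5244 to 3729, from 2459 to 849.4 and from 14180 to 3071. Their part in the comparisons was not tested. In control mice 1 of the 10 genes changed, *Aldh1l2*, which was lower at 7 days (log2 fold change -1.68 ± 0.50, adjusted p = 0.015), while 16.3% of all genes were lower. This call was lost without the libraries with stomach or acinar transcripts (-0.59, adjusted p = 0.49). In knockout mice 3 genes were higher at 7 days, *Aldh1l2* (0.70 ± 0.21, adjusted p = 0.016), *Asns* (0.59 ± 0.16, adjusted p = 0.0091) and *Aldh18a1* (0.85 ± 0.24, adjusted p = 0.011), against 16.7% of all genes. *Psat1* (-0.05 ± 0.19), *Phgdh* (-0.02 ± 0.39) and *Mthfd1l* (0.06 ± 0.13) had values near 0, and *Shmt2* had -0.28 ± 0.16 (adjusted p = 0.18). Without knockout replicate 1 of day 3, the fall of *Shmt2* (-0.39, adjusted p = 0.0070) and the rise of *Pycr1* (0.57, adjusted p = 0.0040) also passed.

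Several of the mitochondrial enzymes have a cytosolic relative that carries out the same or the related reaction. Exons of *Shmt1* overlap *Smcr8* and those of *Mthfd1* overlap *Gm47525*, both on the opposite strand. Those of *Aldh1l1* overlap *Gm15756* on the opposite and *Gm45901* on the same strand. Values were whole in 46.2% of libraries for *Shmt1*, 96.2% for *Mthfd1* and 76.9% for *Aldh1l1*, so some of their reads were shared between genes. The log2 ratio of the counts of each pair within a library does not depend on the scaling of the libraries, and only its difference between genotypes is read here, since the level of a ratio between genes also rests on how each 3′ end is captured. At 3 days the ratio of *Shmt2* to *Shmt1* was higher in knockout mice by 1.53 on the log2 scale (0.77 ± 0.38 against -0.75 ± 0.30, mean ± SD, n = 7 per genotype, exact permutation test, two-sided p = 0.00058, adjusted over the 10 tests 0.0015). The ratios of *Mthfd2* to *Mthfd1*, *Mthfd1l* to *Mthfd1* and *Aldh1l2* to *Aldh1l1* were higher by 2.12, 1.35 and 3.56, each with the same p. This p is the smallest that 3432 permutations can give, as no knockout mouse overlapped a control mouse. The ratio of *Pycr1* to *Pycr3*, listed as *Pycrl* in the files, was higher by 0.75 (exact permutation test, p = 0.30).

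At 7 days the 5 differences were 2.64, 3.81, 2.31, 7.70 and 2.66 in the same order (n = 6 per genotype, exact permutation test, p = 0.0022 for each, adjusted p = 0.0024). With 924 permutations no smaller p is possible. For *Aldh1l2* to *Aldh1l1* the knockout mice lay between 2.48 and 4.002 and the control mice between -5.38 and -3.75 on the log2 scale. At 3 days the cytosolic relatives themselves had log2 fold changes of -0.04 (*Shmt1*), 0.03 (*Mthfd1*), -0.49 (*Aldh1l1*) and -0.08 (*Pycr3*), none of them past the threshold. At 7 days all 4 cytosolic relatives were lower in knockout than in control mice, *Aldh1l1* by 2.59 ± 0.16 (adjusted p = 4.9e-10), *Shmt1* by 1.13 ± 0.13 (9.2e-07), *Pycr3* by 0.90 ± 0.11 (1.7e-06) and *Mthfd1* by 0.72 ± 0.12 (8.2e-05) on the log2 scale. In control mice *Aldh1l1* (1.40 ± 0.18, edgeR, adjusted p = 3.9e-05) and *Pycr3* (0.49 ± 0.14, 0.011) were higher at 7 than at 3 days, against 19.7% of all genes. *Shmt1* and *Mthfd1* did not pass there. In knockout mice the changes were -0.785 (*Aldh1l1*, 0.047), -1.18 (*Shmt1*, 0.00013), -0.99 (*Mthfd1*, 6.7e-05) and -0.42 (*Pycr3*, 0.079), while 20.2% of all genes were lower. As above, day and sequencing batch cannot be told apart in these changes, and the part of the tissue markers was not tested.

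**Figure D4:**
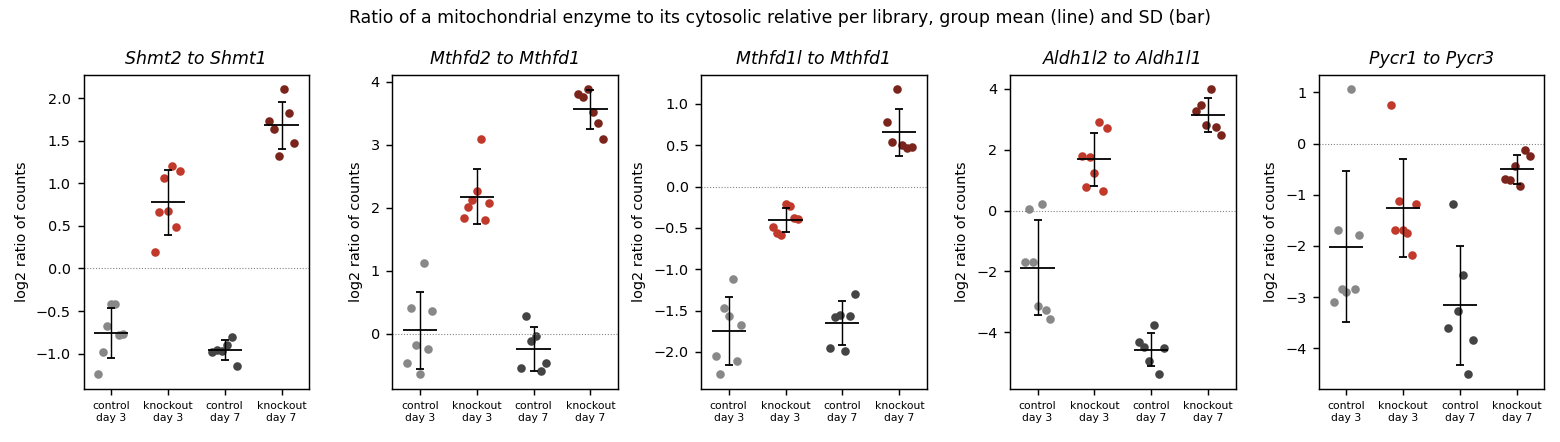
Log2 ratio of the counts of a mitochondrial enzyme to those of its cytosolic relative in each library; points are mice, the line is the group mean and the bar the SD, and the dotted line marks equal counts. Knockout and control mice did not overlap in any pair at 7 days, nor at 3 days except for *Pycr1* to *Pycr3*, where control replicate 5 lay at 1.07 and knockout replicate 1 at 0.75. Other mice overlapped in that pair too, such as control replicate 2 at -1.69 and knockout replicate 6 at -2.18.

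A further 41 genes of the same pathways, none of them among the 10, were read from the same fits. At 3 days 39 could be tested, of which 2 were higher, 1 was lower and 36 did not pass, and their median log2 fold change was 0.08 (all genes -0.03). Over all genes tested, 1.11% were higher and 0.323% lower at that day. The genes that rose were *Cth*, the cystathionine gamma-lyase that makes cysteine (log2 fold change 1.88 ± 0.28, adjusted p = 0.0015), and *Nars*, the cytosolic asparaginyl-tRNA synthetase (1.78 ± 0.23, adjusted p = 0.00042). *Cth* lay between 30.1 and 118 CPM in knockout and between 13.7 and 35.7 CPM in control mice, with overlap. *Nars* lay between 293 and 869 CPM and between 135 and 231 CPM, without overlap. *Oat*, the ornithine aminotransferase, fell by 0.997 ± 0.220 on the log2 scale (adjusted p = 0.031), from 104 to 247 CPM in control mice to 59.4 to 164 CPM in knockout mice.

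At 7 days 39 of the 41 genes could be tested, of which 12 were higher, 14 were lower and 13 did not pass, with a median log2 fold change of -0.17 (all genes -0.02). Beside these counts and those of each list, the shares over all genes tested were 19.7% higher and 18.8% lower. In the proline and ornithine list 1 gene was higher and 5 were lower of 6 tested (median -1.89). The largest falls among the 39 genes tested were in that list, *Arg2*, the mitochondrial arginase, by 3.34 ± 0.12 on the log2 scale (adjusted p = 6.3e-13), and *Aldh4a1*, which oxidizes the breakdown product of proline, by 3.03 ± 0.29 (1.3e-07), followed by *Aldh1l1* of the folate list. *Arg2* went from 230 to 324 CPM in control mice to 22.1 to 28.6 CPM in knockout mice. *Oat* fell by 2.59 ± 0.17 (1.1e-09). Exons of *Arg2* overlap *Vti1b* and *Gm48780* on the opposite strand, and those of *Aldh4a1* and *Aldh1l1* overlap *Gm21969* and *Gm45901* on the same strand. Those of *Aldh1l1* also overlap *Gm15756* on the opposite strand. Values were whole in 65.4% (*Arg2*), 92.3% (*Aldh4a1*) and 76.9% (*Aldh1l1*) of libraries, so some of their reads were shared between genes.

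In the asparagine and aspartate list 3 genes were higher and 0 lower of 8 tested at 7 days, with *Nars* at 963 to 1364 CPM in knockout and 211 to 390 CPM in control mice (log2 fold change 2.13 ± 0.16, adjusted p = 8.1e-09). In the serine and glycine list 3 were higher and 4 lower of 11 tested, and *Cth* was again among the former (1.05 ± 0.12, adjusted p = 9.0e-07). In the folate list 5 were higher and 5 lower of 14 tested. The largest rise there was that of *Ggh*, which removes glutamate from stored folates (3.41 ± 0.17, adjusted p = 2.7e-11). *Ggh* lay between 63.9 and 116 CPM in knockout and between 6.16 and 12.6 CPM in control mice. At 3 days *Ggh* had a log2 fold change of 0.24, which did not pass the threshold.

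*Tyms*, which uses folate to make thymidylate and was named after its values were seen, fell by 1.18 ± 0.18 (adjusted p = 2.7e-05) on the log2 scale at 7 days. Other tissue signals moved at that day too. The summed CPM of 7 proliferation markers lay between 147 and 246 in knockout and between 529 and 675 in control mice, with 6 of the 7 lower and 1 higher. That of 6 enterocyte markers lay between 2853 and 3963 against 7484 and 13650 (5 of 6 lower), that of 7 epithelial markers between 2011 and 2339 against 2777 and 3339 (4 of 7 lower), and that of 5 lymphocyte and plasma cell markers between 2692 and 5121 against 7303 and 15199 (3 of 4 tested lower). At 3 days none of these markers passed the threshold. Their part in the falls at 7 days was not tested.

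**Figure D5:**
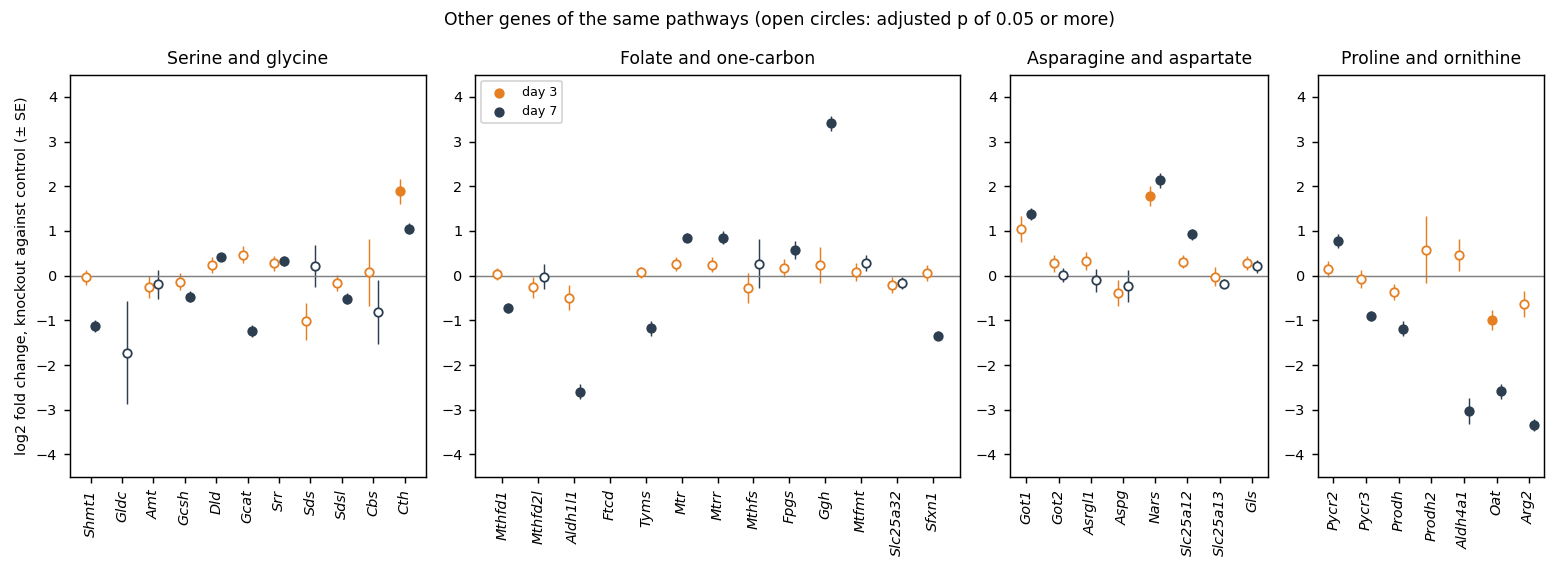
Log2 fold change in knockout against control mice, with its SE, of the other genes of the pathways by list at 3 days (orange) and 7 days (dark); open circles are values with an adjusted p of 0.05 or more, and genes not tested at a day have no point. Some listed genes are not drawn. Of all 39 genes tested 3 passed the threshold at 3 days and 26 at 7 days, from *Arg2* at -3.34 to *Ggh* at 3.41. Over all genes 1.43% passed at 3 days and 38.5% at 7 days.

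The genes whose group means were most like those of the 10 enzymes were found among the 12721 genes averaging 20 counts or more. The measure was the root mean square difference between the 4 group means of log2 CPM, each centred on the gene's own mean, and the median of these values over the 10 genes, which was 0.81 in knockout and -0.90 in control mice at 3 days and 1.20 and -1.09 at 7 days. The nearest genes were *Cars* (0.16), the cytosolic cysteinyl-tRNA synthetase, *Atf4* itself (0.24), *Eif3c* (0.26), a subunit of a translation initiation factor, *Hspa9* (0.27), the mitochondrial HSP70 chaperone, and *Pck2* (0.29), the mitochondrial phosphoenolpyruvate carboxykinase. This likeness rests on 4 group means and is a description with no test.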

How the data were processed

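The 3′ ends of polyadenylated transcripts (QuantSeq) were sequenced from the proximal SI of 26 mice. The authors trimmed the reads with cutadapt 2.10, aligned them to GRCm38 and deposited estimated counts per gene made with featureCounts 2.0.1, which divided reads on exons of several genes into fractions. No strand option is given in the sources used here. A deposited CPM table equalled the counts over their library total (largest difference 1.5e-11) and was used only for that check. The 92 spike-in entries held 0 counts and were left out.

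Groups follow the labels, and replicates are separate mice. The fractional counts (95.0% of values were whole) were rounded to whole numbers and tested in R 4.3.3 by edgeR 4.0.16 (quasi-likelihood test) (TMM normalization, Benjamini-Hochberg adjustment over all genes tested, threshold 0.05), 1 fit per comparison and 1 of all libraries for the interaction. As in the study, a gene was tested unless most mice of either genotype had a zero count, and for the interaction unless that was so in all 4 groups. SEs are the size of the log2 fold change over the square root of F. Ratios used 0.5 as pseudocount and two-sided exact permutation tests (SciPy 1.17.1). Libraries held 3720168 to 6338016 counts, and genes of few counts such as *Phgdh* are the least precise. Coordinates come from GENCODE M21 (GRCm38).

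All 10 genes were named. Of the 41 other pathway genes, those past the threshold at 3 days, the 3 largest rises and 3 largest falls at 7 days (mean of at least 20 counts) and the cytosolic relatives were named. Results of the targeted gene and of some listed genes are not reported here, though the latter are in the counts over the lists. Members, lists and tests were chosen with earlier results of these data known. Alternatives were DESeq2 1.42.0, its size factors, filterByExpr, no filter, all libraries in 1 fit, the replicate number as a block, marker scores as covariates, a pseudocount of 2 and each mouse left out in turn. Leaving out the libraries with over 100 CPM of stomach markers, or also those with over 1000 CPM of acinar markers, was chosen after the data were seen. The tests of the 41 other pathway genes were not repeated under any of these settings. The code was tested on simulated data.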

Additional observations from a re-analysis of the deposited data

Results flagged for a closer look

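In groups of 6 or 7 mice, 8 of 60 sets of values had 1 mouse far from the others by Dixon's test, where about 3 would be by chance. Knockout replicate 1 of day 3 was far below its group in *Psat1* (35.5 CPM) and far above it in *Pycr1* (39.7 CPM) and in the log2 ratio of *Pycr1* to *Pycr3* (0.75). Control replicate 5 of day 3 was far above its group in *Pycr1* (59.9 CPM) and in the same ratio (1.07). Control replicate 2 of day 7 was far above its group in *Pycr1* (22.1 CPM). These 3 libraries held 633, 5445 and 5330 CPM of stomach markers, and the part of these transcripts in the values was not tested. Knockout replicate 2 of day 7 was high in *Aldh1l2* (78.6 CPM), and knockout replicate 5 of day 3 in the log2 ratio of *Mthfd2* to *Mthfd1* (3.09).

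Among the 10 genes and the pathway genes named by rule, the effect of the knockout differed between the days in the interaction test of edgeR for those given here. It was larger at 7 days for *Aldh1l2* (by 2.48 on the log2 scale), *Asns* (0.96), *Mthfd2* (0.94) and *Ggh* (3.197). It was more negative for *Aldh4a1* (-3.46), *Arg2* (-2.68), *Aldh1l1* (-2.07), *Oat* (-1.57), *Shmt1* (-1.06), *Pycr3* (-0.80) and *Mthfd1* (-0.73).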

How the results depend on the processing

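The rises at 3 and 7 days kept their direction under every alternative in all 10 genes except *Pycr1* and *Aldh18a1* at 3 days. *Phgdh*, *Pycr1*, the interactions of *Mthfd2*, *Aldh1l2* and *Asns*, the call of *Aldh1l2* between control mice and those of *Shmt2*, *Pycr1* and *Mthfd2* between knockout mice are among the calls that depend on single libraries or on those with stomach or acinar transcripts. The low counts of *Phgdh* limit its precision, and filterByExpr dropped it at 3 days. Over the alternatives other than leaving out 1 mouse, the adjusted p at 3 days lay between 0.00060 and 0.21 for *Phgdh*, 0.0011 and 0.89 for *Pycr1*, and 1.1e-07 and 0.0053 for *Aldh1l2*, and at 7 days between 8.2e-07 and 0.20 for *Pycr1*. For the interaction it lay between 6.8e-05 and 0.22 (*Aldh1l2*), 0.0028 and 0.16 (*Asns*), 0.0045 and 0.30 (*Mthfd2*) and 0.022 and 0.36 (*Pycr1*). For *Aldh1l2* between control mice it lay between 0.0019 and 0.49. Between knockout mice it lay between 0.0070 and 0.26 for *Shmt2*, 0.0040 and 0.35 for *Pycr1* and 0.043 and 0.10 for *Mthfd2*. *Mthfd2* did not pass there in the fit reported, but passed with DESeq2 (0.40, adjusted p = 0.043) and filterByExpr (0.39, adjusted p = 0.047).

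The count of genes called at 3 days (297 in the fit reported) was 709 with DESeq2, 810 with all 26 libraries in 1 fit, 1108 with the epithelial score as a covariate, 486 without the stomach libraries, 127 without the stomach and acinar libraries, and 171 to 779 on leaving out 1 mouse at a time. At 7 days, when the sums of the epithelial markers did not overlap between the genotypes, it was 4316 with the epithelial score in place of 7790. The labels do not say whether replicate numbers pair the mice. Correlations of same-numbered mice ranged from -0.395 to 0.482 (day 3) and from -0.32 to 0.504 (day 7), and 2 of 7 and 2 of 6 numbers correlated best with their own. Differences in tissue between the pieces enter these correlations, so they cannot exclude a pairing. With the replicate number as a block, 99 genes were called at 3 days, *Phgdh* lost its call there (adjusted p = 0.18), and no other call of the 10 genes changed.

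*Aldh18a1* at 3 days was -0.0061 without the stomach and acinar libraries and -0.12 with their scores as covariates, and *Pycr1* lay between -0.027 and 1.13 with each mouse left out. The interaction of *Shmt2*, near 0, was -0.012 with DESeq2, -0.013 with its size factors, -0.057 without the stomach libraries and -0.014 without the stomach and acinar libraries, and between -0.081 and 0.094 with each mouse left out. That of *Phgdh* was -0.10 and -0.94 without these sets of libraries, and that of *Mthfd1l* -0.033 without the second. Without the second, the interaction called 1993 genes and 1 of the 10.

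Between control mice of the 2 days, 2 of the 10 genes were called with filterByExpr (of 7274 genes called), 0 (of 4302 genes called) without the stomach and acinar libraries, and between 1 and 2 with each mouse left out. Of all genes tested, 36% were called in the comparison reported. *Phgdh* was 0.011 without the stomach libraries, and 0.82 without the stomach and acinar libraries, where *Mthfd1l* was 0.068 and *Aldh18a1* -0.037. With each mouse left out *Mthfd1l* lay between -0.18 and 0.040, *Psph* between -0.029 and 0.32 and *Pycr1* between -1.38 and 0.068. Between knockout mice, *Phgdh* was 0.014 with DESeq2, 0.0099 with its size factors and 0.0082 with filterByExpr. Without the stomach library 5 of the 10 genes were called (of 7186 genes called, against 7509, or 36.9% of those tested, in the comparison reported) and *Mthfd1l* was -0.0063. With each mouse left out between 3 and 5 were called, and *Mthfd1l* lay between -0.0063 and 0.16, *Phgdh* between -0.18 and 0.33 and *Psat1* between -0.19 and 0.072.

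The ratio of *Pycr1* to *Pycr3* at 3 days was 1.08 without the stomach libraries (exact permutation test, adjusted p = 0.013) and between 0.42 and 1.27 with each mouse left out. Without the stomach and acinar libraries the ratio differences of *Shmt2*, *Mthfd2*, *Mthfd1l* and *Aldh1l2* were 1.51, 2.72, 1.48 and 5.05 at 3 days, and with *Pycr1* last 2.57, 3.97, 2.16, 7.90 and 3.43 at 7 days. None of these passed, as the few control mice left allow no adjusted p below 0.071.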
